A study of Mus musculus with 5 samples.

Results

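The genes described here encode the ligands, receptors, inhibitors, transducers and target transcription factors of 5 developmental signalling families, the Wnt, Notch, Hedgehog, BMP with TGF-beta, and FGF pathways, as printed on a spotted mouse array hybridised with retinal RNA. Members were taken by gene symbol, as every spot whose single symbol began with a family name such as Wnt, Fzd, Sfrp, Notch, Jag, Hes, Ptch, Gli, Bmp, Tgfb, Smad or Fgf. This gave 87 of 17328 spots, for 56 genes. Of these spots, 63 for 46 genes had a usable ratio on at least 4 of 5 arrays and could be tested, 45 of them on all 5 arrays. The selection goes by name. It includes Jagn1, which encodes a protein of the endoplasmic reticulum, and Fgfr1op2, named for a fusion partner of an FGF receptor, neither of which is a component of the pathway whose prefix it carries.

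The 5 arrays were dual-colour hybridisations that all carried the same labels, wild-type mouse total RNA in channel 1 and RNA of Rb-mutant mice in channel 2. Rb is the retinoblastoma tumour suppressor, and the series title names retinal explants, which are retinas kept in organ culture. The allele, the age, the time in culture and the number of animals are not stated in the labels. It is also not stated that the arrays come from different animals or cultures, so each p-value reflects the spread among 5 hybridisations, possibly a technical one. The dye of each RNA is not stated either, so a positive or a negative log2 ratio is given as deposited and is not assigned to the mutant or to the wild type. In bulk retina a ratio cannot tell a change in the share of a cell type from a change in RNA per cell.

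These pathways pass signals between neighbouring or nearby cells. Wnt ligands bind Frizzled receptors and stabilise beta-catenin, Notch receptors are cleaved when bound by Delta or Jagged ligands and then switch on Hes and Hey repressors with the DNA-binding protein RBPJ, and Hedgehog ligands relieve the inhibition that Patched exerts upstream of the Gli factors. BMP and TGF-beta ligands signal through paired receptor kinases to Smad proteins, and FGFs act through receptor tyrosine kinases. In the developing retina, Notch signalling holds progenitors back from differentiation, Hedgehog and FGF signals bear on progenitor growth, and Sfrp2, Fzd5, Dll1, Hes5, Hes6 and Fgf15 are known from retinal progenitors or newborn neurons.

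No signalling gene passed the test, and the share of members at a looser threshold was close to that of the whole array. The comparison asks which of them differ between the RNAs, with each array's log2 ratios centred on that array's median and each probe's mean tested against 0. With limma and Benjamini-Hochberg adjustment over all 10036 probes, 0 of the 63 member probes had an adjusted p under 0.05, against 0.0% of all probes. The smallest adjusted p among members was 0.409. At an unadjusted p under 0.05 there were 6 member probes (9.52%), against 11.4% of all probes. Of these 6, 3 had positive means, for Sfrp2, Tgfbr2 and Dll1, and 3 had negative means, for Ptch1, Jag1 and Fzd5. Over all probes the same threshold was met by 5.52% on the positive and 5.9% on the negative side. Without moderation of the variances the test gave 0 adjusted calls and 4 members at an unadjusted p under 0.05, beside 10.3% of all probes. Over all tested probes the scaled median absolute deviation was 0.63 to 1.14 log2 per array, largest on arrays 1 and 3, so sizes are not directly comparable between arrays. The median of the 63 member means was -0.15 log2, beside -0.16 over all probes, and the median absolute mean was 0.39 against 0.44. Means ran from -1.37 for Jag1 probe 3 to 2.17 for Sfrp2 probe 3. Probes of a gene are numbered here in order of their spot number.

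**Figure D1:**
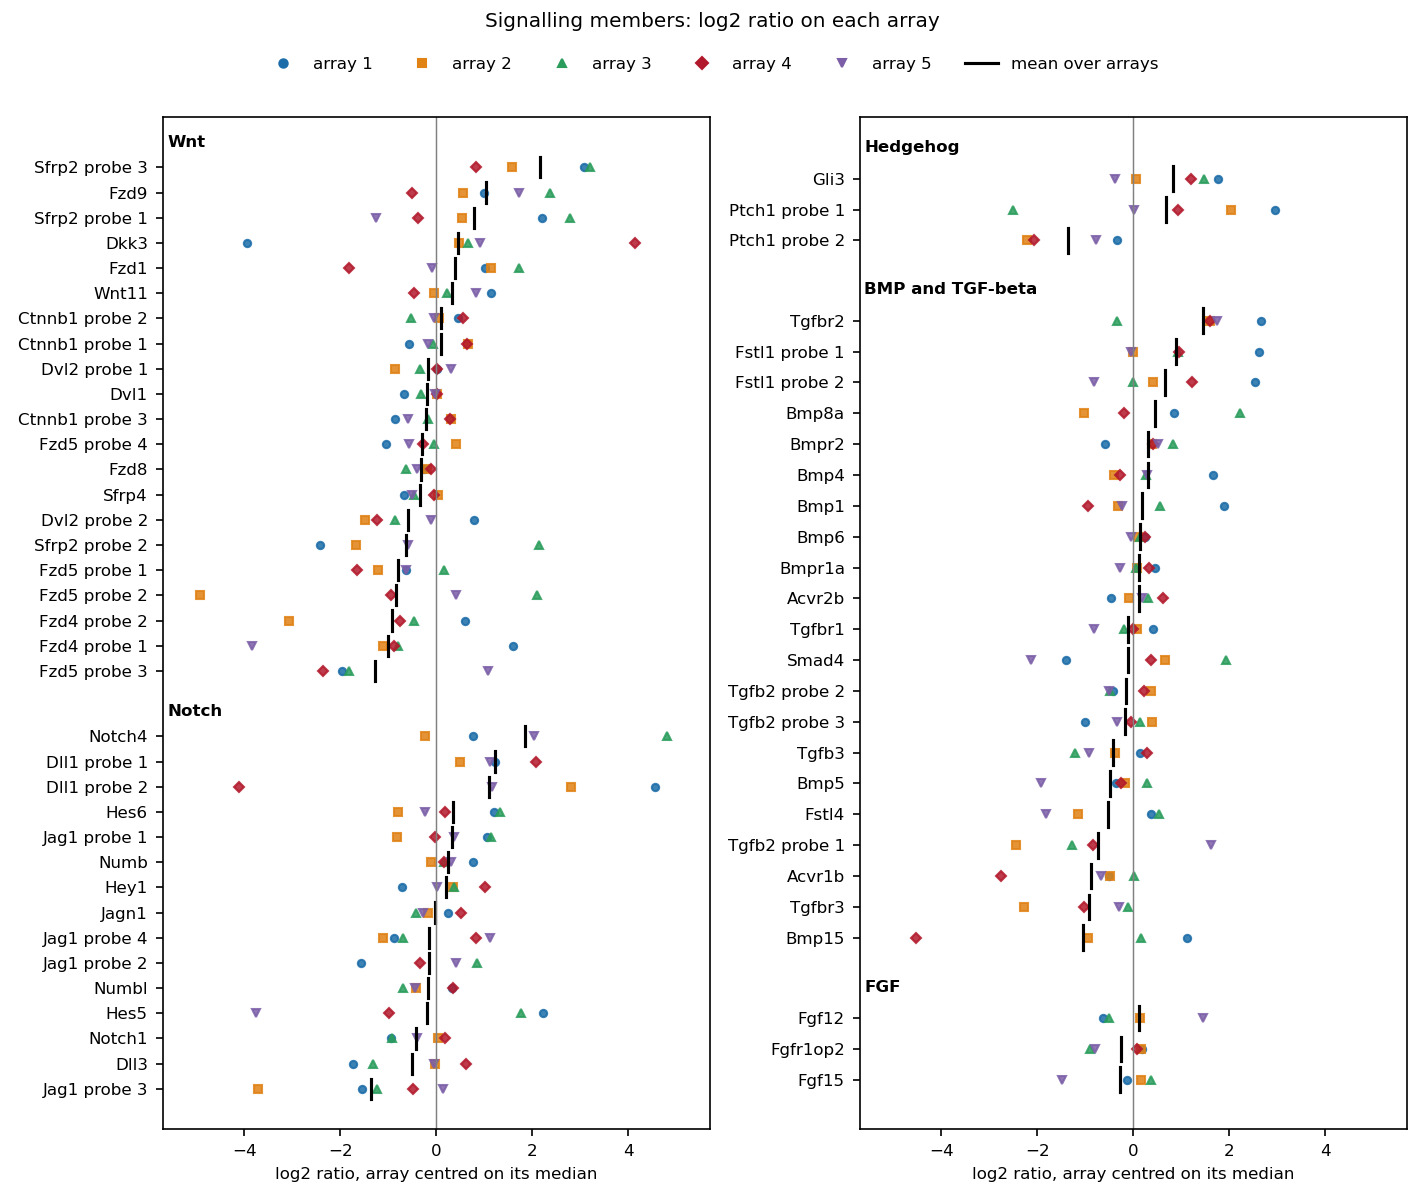
Log2 ratio (horizontal axis, array centred on its median) of all 63 tested member probes, by pathway, with 1 symbol per array and a black bar at the mean over arrays. Points of most probes fall on both sides of 0, and 1 of the 45 probes on all 5 arrays, Fzd8, keeps to a single side.

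Few members kept their sign. Among the 45 member probes measured on all 5 arrays, 0 were positive on every array, against 4.01% of all such probes, and 1 was negative on every array, against 11.2%. That probe belonged to Fzd8, a Frizzled receptor, with ratios (log2) of -0.26, -0.20, -0.62, -0.1 and -0.40 on arrays 1 to 5. It was singled out after its values were seen. Its ratios were small on every array, with a mean of -0.32 ± 0.20 (SD, n = 5) and a limma adjusted p of 0.554. The exact two-sided sign-flip permutation p was 0.0625, the smallest that 5 arrays allow. Counts of probes on a single side, for members and for all probes, depend on where the centring sets 0. After centring, the tested probes still had medians of -0.20, -0.02, -0.22, 0.023 and -0.13 on arrays 1 to 5. These counts were not made under another centring.

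Among Wnt genes, the antagonist Sfrp2 had the largest mean, and its probes did not agree. Sfrp2 encodes a secreted protein that binds Wnt ligands. Probe 3 had ratios (log2) of 3.07, 1.57, 3.20 and 0.83 on arrays 1 to 4, with no usable value on array 5. Arrays 1 and 3 were highest and all 4 values were positive. The mean was 2.17 ± 1.16 (SD, n = 4), with a limma adjusted p of 0.409, and its p was the smallest of any member. The exact sign-flip permutation p was 0.125, the smallest that 4 arrays allow. Probe 1 of Sfrp2 had 2.20, 0.54, 2.78, -0.38 and -1.26 on arrays 1 to 5, again highest on arrays 1 and 3 but below 0 on arrays 4 and 5. Probe 2 had -2.42, -1.68, 2.13 and -0.58 on arrays 1, 2, 3 and 5, positive on array 3 alone. With arrays 1 and 3 left out, probe 3 no longer had an unadjusted limma p under 0.05, and the values that remained were 1.57 on array 2 and 0.83 on array 4. Of the other secreted antagonists, Sfrp4 had a mean of -0.33 ± 0.31 (SD, n = 5). The tested Dkk3 probe had -3.95, 0.48, 0.66, 4.13 and 0.91 on arrays 1 to 5. This was the widest spread of any Wnt probe on 5 arrays, with arrays 1 and 4 at opposite ends. Another Dkk3 spot, too sparse to test, had 0.13, -3.45 and -0.97 on arrays 3, 4 and 5, opposite in sign on arrays 4 and 5.

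The Frizzled receptors, which take up the Wnt signal at the membrane, pointed to different sides. Fzd5, a receptor of the eye field and of retinal progenitors, had 4 tested probes, and all 4 means were negative, from -1.27 to -0.30. Probe 1 had -0.62, -1.20, 0.16, -1.64 and -0.63 on arrays 1 to 5, averaging -0.79 ± 0.68 (SD, n = 5), with a limma adjusted p of 0.435. Probe 3 had -1.96, -1.83, -2.36 and 1.08 on arrays 1, 3, 4 and 5, where array 5 stood apart from the other 3. Probes 2 and 4 had -4.93, 2.10, -0.94 and 0.41 on arrays 2 to 5 and -1.04, 0.42, -0.048, -0.27 and -0.58 on arrays 1 to 5. All probes present had the same sign on 2 of the 5 arrays, and on the other 3 the signs were mixed. Fzd4, which also serves as the receptor for Norrin in retinal vessels, had 1.60, -1.12, -0.80, -0.88 and -3.84 on arrays 1 to 5 on probe 1 and 0.60, -3.06, -0.46 and -0.75 on arrays 1 to 4 on probe 2. Both Fzd4 probes were positive on array 1 and negative on arrays 2, 3 and 4, with means of -1.01 and -0.92. Each mean leaned on 1 array, and was -0.30 for probe 1 without array 5 and -0.20 for probe 2 without array 2. Fzd9 had 0.99, 0.56, 2.37, -0.50 and 1.72 on arrays 1 to 5, positive except on array 4, and a mean of 1.03 ± 1.10 (SD, n = 5) with a limma adjusted p of 0.437. Fzd1 had 1.01, 1.13, 1.72, -1.82 and -0.088 on arrays 1 to 5.

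Inside the cell, the beta-catenin gene Ctnnb1 was among the steadiest genes. Its 3 probes, each on all 5 arrays, had means of 0.099, 0.10 and -0.21, and single ratios between -0.86 and 0.67. The Dishevelled genes Dvl1 and Dvl2, which relay the signal from Frizzled, had means of -0.20 ± 0.31 (SD, n = 5) for Dvl1 and of -0.17 ± 0.44 (SD, n = 5) and -0.58 ± 0.92 (SD, n = 5) for the 2 tested probes of Dvl2. Probe 2 of Dvl2 had 0.78, -1.48, -0.85, -1.23 and -0.11 on arrays 1 to 5, and probe 1 had 0.018, -0.85, -0.35, 0.024 and 0.30 on arrays 1 to 5. The ligand Wnt11 had 1.15, -0.053, 0.23, -0.46 and 0.82 on arrays 1 to 5. As a group, the 21 Wnt probes had a median minus that of all probes of 0.082, 0.046, 0.16, -0.35 and 0.02 on arrays 1 to 5, near 0 on 4 arrays and lowest on array 4.

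For Notch, both probes of the ligand Dll1 had positive means, and the receptors and the other ligands had means of either sign. Dll1 encodes a Delta ligand made by newborn neurons. Probe 1 had 1.23, 0.50, 2.08 and 1.12 on arrays 1, 2, 4 and 5, positive on all 4 arrays with a value, and averaged 1.23 ± 0.65 (SD, n = 4) with a limma adjusted p of 0.429. Probe 2 had 4.56, 2.81, -4.11 and 1.16 on arrays 1, 2, 4 and 5. Both probes were positive on arrays 1, 2 and 5, and on array 4 they lay on opposite sides by 6.19 log2 units. Dll3, a Delta relative that acts inside the cell, had -1.72, -0.027, -1.32, 0.63 and -0.047 on arrays 1 to 5, lowest on arrays 1 and 3. The tested spot of Notch1, the main receptor of retinal progenitors, had -0.95, 0.029, -0.91, 0.18 and -0.41 on arrays 1 to 5. It was also lowest on arrays 1 and 3. Its mean was -0.41 ± 0.52 (SD, n = 5), with a limma adjusted p of 0.534. Further Notch1 spots were too sparse to test. The sparsest gave 1.26 (array 1) and 0.005 (array 5). The other gave -5.455 (array 3), 2.14 (array 4) and 2.48 (array 5). Their signs matched the tested spot for array 3 and array 4, but were opposite for array 1 and array 5. Notch4, a receptor best known from vessels, had 0.76, -0.24, 4.80 and 2.04 on arrays 1, 2, 3 and 5, and its average of 1.84 ± 2.18 (SD, n = 4) rested mostly on array 3. Another Notch4 spot, too sparse to test, had -1.91, -0.076 and -3.05 on arrays 1, 3 and 4. It was opposite in sign to the tested spot on arrays 1 and 3.

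Jag1, a Jagged ligand, had 4 tested probes that contradicted each other. Probe 3 had -1.54, -3.72, -1.23, -0.49 and 0.14 on arrays 1 to 5, averaging -1.37 ± 1.47 (SD, n = 5) with a limma adjusted p of 0.435. Probe 1 had 1.05, -0.83, 1.13, -0.035 and 0.37 on arrays 1 to 5, positive on arrays 1 and 3 where probe 3 was negative. Probe 2 had -1.57, 0.84, -0.33 and 0.42 on arrays 1, 3, 4 and 5 and probe 4 -0.88, -1.12, -0.70, 0.83 and 1.12 on arrays 1 to 5. On 2 of 5 arrays all Jag1 probes present had the same sign, and the means ran from -1.37 to 0.34.

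The Hes and Hey genes, which include direct outputs of Notch, gave no common direction. Hes5 had 2.22, 1.77, -0.98 and -3.75 on arrays 1, 3, 4 and 5, high on arrays 1 and 3 and low on arrays 4 and 5, so that the mean of -0.18 ± 2.77 (SD, n = 4) describes none of them. The scan's focus position also divides these arrays, at 10 for arrays 1 to 3 and 0 for arrays 4 and 5. Its part in the Hes5 ratios was not tested. Hes6, a relative expressed in newborn neurons that opposes Hes1, had 1.21, -0.80, 1.33, 0.19 and -0.23 on arrays 1 to 5, also highest on arrays 1 and 3. Hey1 had -0.71, 0.36, 0.38, 1.01 and 0.023 on arrays 1 to 5, where array 1 was the negative one. Numb and Numbl, adaptors that restrain Notch, had small means of 0.25 ± 0.32 (SD, n = 5) and -0.17 ± 0.48 (SD, n = 5). The 15 Notch probes together had a median minus that of all probes of 0.54, -0.15, 0.38, 0.16 and 0.28 on arrays 1 to 5, above 0 on 4 arrays.

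The upstream sequence of Hes5 is shown because Hes5 is a well-known Notch target, and those of Sfrp2, Jag1 and Dll1 because they are the 3 of the 6 members with an unadjusted p under 0.05 that have a window with the letters bound by Hes and Hey proteins. Each is the 250 bases before the start in RefSeq, build GRCm38.p6, printed 5′ to 3′ along the gene. Capitals mark TGGGAA on either strand, the core bound by RBPJ, in Hes5 (chr4:154960673-154960922, plus strand), and CACGTG or CACGCG on either strand in Sfrp2 (chr3:83766071-83766320, plus strand), Jag1 (chr2:137116521-137116770, minus strand) and Dll1 (chr17:15376933-15377182, minus strand).
Hes5: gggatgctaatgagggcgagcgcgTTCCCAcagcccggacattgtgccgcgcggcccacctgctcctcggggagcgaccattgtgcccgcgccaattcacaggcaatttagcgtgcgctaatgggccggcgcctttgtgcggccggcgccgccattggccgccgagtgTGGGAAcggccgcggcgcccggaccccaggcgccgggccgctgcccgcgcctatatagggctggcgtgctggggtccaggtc
Sfrp2: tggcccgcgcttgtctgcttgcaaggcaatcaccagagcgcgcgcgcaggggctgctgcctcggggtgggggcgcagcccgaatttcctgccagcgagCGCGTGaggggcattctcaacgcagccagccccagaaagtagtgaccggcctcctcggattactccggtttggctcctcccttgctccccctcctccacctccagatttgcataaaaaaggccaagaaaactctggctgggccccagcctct
Jag1: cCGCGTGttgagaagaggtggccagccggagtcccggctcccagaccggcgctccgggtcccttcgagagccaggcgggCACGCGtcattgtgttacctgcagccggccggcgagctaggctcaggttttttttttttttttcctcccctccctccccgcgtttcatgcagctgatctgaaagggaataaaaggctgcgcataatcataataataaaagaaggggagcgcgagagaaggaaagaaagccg
Dll1: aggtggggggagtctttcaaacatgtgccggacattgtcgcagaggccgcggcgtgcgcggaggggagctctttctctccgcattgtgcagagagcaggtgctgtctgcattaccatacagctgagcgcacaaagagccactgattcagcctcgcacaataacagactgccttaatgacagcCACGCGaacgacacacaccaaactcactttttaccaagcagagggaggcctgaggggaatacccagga
Hes5 holds 2 RBPJ matches, beginning 226 and 82 bases before the start. Sfrp2 holds 1 Hes and Hey match and Jag1 holds 2. Dll1 has 2 windows in RefSeq, and the one printed holds 1 match. RefSeq windows were found for 44 of the 56 member genes, 56 windows in all, and none of the letter strings searched, on either strand, contains another. RBPJ letters were in 10 of the 56 member windows (17.9%), against 21.6% of all 32851 windows of this length. Hes and Hey letters were in 19 (33.9%), against 12.9% of all. Smad letters (GTCTAGAC or GGCGCC) were in 13 (23.2%) against 9.74%, TCF/LEF letters (CTTTGATC or CTTTGTT) in 2 (3.57%) against 5.79%, and E2F letters (TTTGGCGC, TTTCGCGC, TTTCCCGC or TTTGCCGC) in 1 (1.79%) against 1.86%. Gli letters (TGGGTGGTC) were in 0 of the 56 and in 0.225% of all. Base composition differs between windows and was not matched, and a match is only a description of the letters. The member with RBPJ letters shown here, Hes5, had ratios from -3.75 to 2.22, and the Jag1 probes ranged over both signs.

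Hedgehog signalling was represented by 3 tested probes for 2 genes. Ptch1 encodes the Patched receptor and is itself a target of the pathway. Probe 2 had -0.34, -2.22, -2.07 and -0.77 on arrays 1, 2, 4 and 5, negative on all 4 arrays with a value, and averaged -1.35 ± 0.94 (SD, n = 4) with a limma adjusted p of 0.432. Probe 1 had 2.95, 2.03, -2.51, 0.93 and 0.022 on arrays 1 to 5, and on 0 of the 4 arrays shared by the probes did both have the same sign. Gli3, the Gli factor that mostly acts as a repressor, had 1.76, 0.064, 1.47, 1.20 and -0.39 on arrays 1 to 5. Arrays 1, 3 and 4 lay above 1 log2 and arrays 2 and 5 near or below 0. Its mean was 0.82 ± 0.93 (SD, n = 5), with a limma adjusted p of 0.45. Sufu, which holds Gli proteins in the cytoplasm, had a usable ratio on only 3 arrays, with 2.21, 1.51 and -0.24 on arrays 1, 3 and 5, and was not tested.

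**Figure D2:**
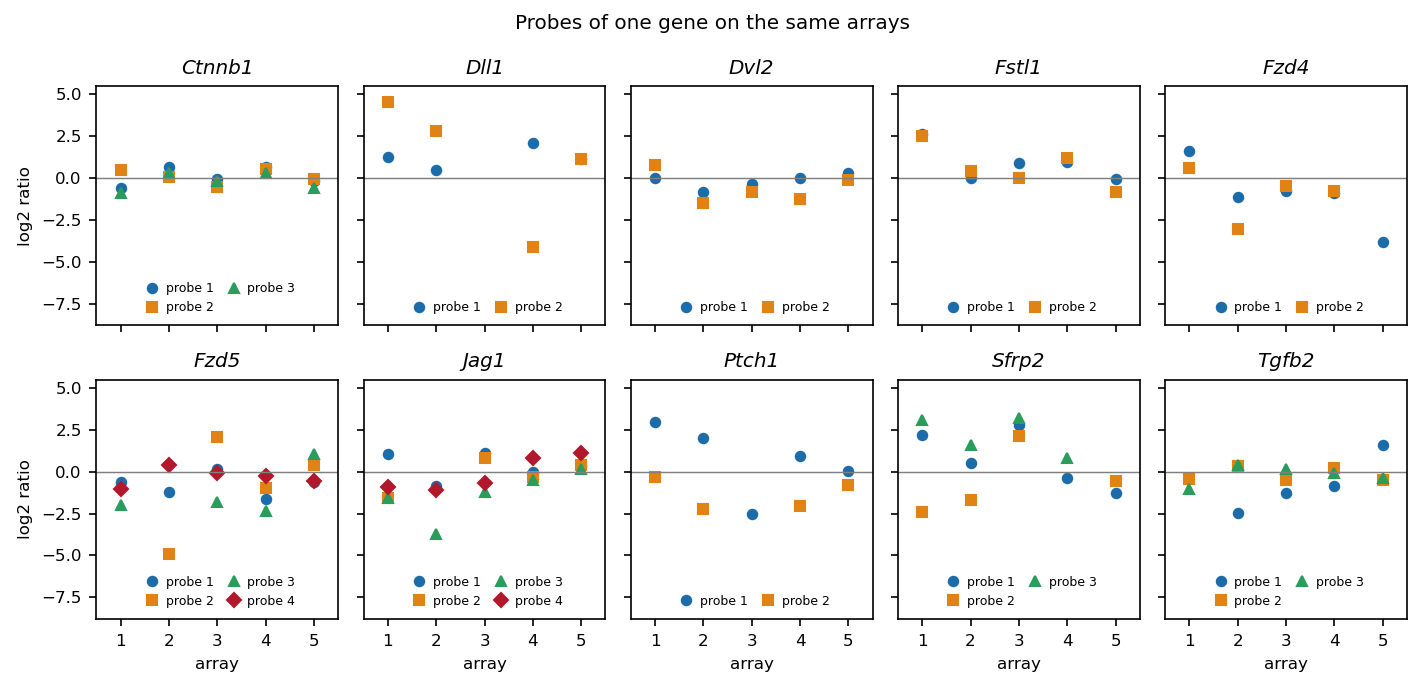
Log2 ratio (vertical axis) on arrays 1 to 5 (horizontal axis) for the 10 member genes with more than 1 tested probe, 1 colour and symbol per probe. The Ptch1 probes lie on opposite sides of 0 on each array they share, while the Fstl1 probes lie within 0.92 log2 of each other on every array.

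In the BMP and TGF-beta family, Tgfbr2 lay on the positive side on 4 of 5 arrays, at similar size on 3 of them. It encodes the receptor kinase that binds TGF-beta ligands. Its ratios (log2) were 2.67, 1.59, -0.35, 1.59 and 1.74 on arrays 1 to 5, above 1.5 on 4 arrays and below 0 on array 3. The mean was 1.45 ± 1.10 (SD, n = 5), with a limma adjusted p of 0.429 and an exact sign-flip permutation p of 0.125. Tgfbr1, the partner kinase of Tgfbr2, had 0.41, 0.076, -0.20, -0.013 and -0.81 on arrays 1 to 5, averaging -0.11 ± 0.45 (SD, n = 5). Tgfbr3, the co-receptor betaglycan, had -2.28, -0.11, -1.03 and -0.29 on arrays 2 to 5, negative on all 4 arrays with a value and with a limma adjusted p of 0.454. Among ligands, the 3 Tgfb2 probes had means of -0.74, -0.16 and -0.17. Probe 1 had -2.45, -1.29, -0.84 and 1.62 on arrays 2 to 5. Probe 2 had -0.41, 0.37, -0.48, 0.22 and -0.50 on arrays 1 to 5 and probe 3 -1.003, 0.39, 0.15, -0.058 and -0.35 on arrays 1 to 5, with all probes present of the same sign on 1 array of 5. Tgfb3 had a mean of -0.42 ± 0.66 (SD, n = 5).

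Ratios of the BMP ligands and receptors were mostly small. Bmp4, a dorsal patterning signal of the eye, had 1.66, -0.40, 0.27, -0.27 and 0.29 on arrays 1 to 5, with array 1 highest and a mean of 0.31 ± 0.82 (SD, n = 5). Bmp6 had the narrowest spread of all members, with 0.25, 0.11, 0.14, 0.24 and -0.053 on arrays 1 to 5. Bmp5 had a mean of -0.48 ± 0.85 (SD, n = 5), Bmp8a of 0.46 ± 1.40 (SD, n = 4) and Bmp15, an oocyte factor, of -1.04 ± 2.46 (SD, n = 4), whose array 4 value was -4.52. Bmp1, a metalloprotease that despite its name is no BMP ligand, had a mean of 0.19 ± 1.09 (SD, n = 5). The BMP receptor kinases Bmpr1a and Bmpr2 had 0.12 ± 0.28 (SD, n = 5) and 0.31 ± 0.53 (SD, n = 5). Each also had a spot too sparse to test. That of Bmpr1a had -0.076 and 0.82 on arrays 3 and 5, and that of Bmpr2 had -0.37, -4.72 and -0.27 on arrays 2, 4 and 5. Among activin receptors, Acvr1b had -0.50, -0.48, 0.018, -2.75 and -0.67 on arrays 1 to 5, averaging -0.88 ± 1.08 (SD, n = 5), which was set largely by array 4, and Acvr2b had 0.11 ± 0.41 (SD, n = 5). Smad4, the common partner of all receptor-regulated Smads, had -1.40, 0.65, 1.92, 0.36 and -2.12 on arrays 1 to 5, both signs with a mean near 0.

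Fstl1, a secreted glycoprotein related to follistatin, had 2 probes whose widest gap on any array was the smallest among the 10 genes with several tested probes. Probe 1 had 2.61, -0.009, 0.92, 0.96 and -0.056 on arrays 1 to 5 and probe 2 2.53, 0.41, -0.002, 1.22 and -0.83 on arrays 1 to 5. Both were highest on array 1 and above 0.9 on array 4, and the gap between them was 0.92 log2 or less on every array. The means were 0.89 ± 1.08 (SD, n = 5) and 0.67 ± 1.28 (SD, n = 5), with unadjusted limma p of 0.0865 and 0.228. Fstl4 had a mean of -0.52 ± 1.15 (SD, n = 4). Over the 21 probes of this family, the median minus that of all probes was 0.57, -0.068, 0.37, 0.081 and -0.16 on arrays 1 to 5.

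FGF signalling was sparsely measured, with 3 of its 11 spots tested, 1 of those for Fgfr1op2. Fgf15, the progenitor FGF of the mouse retina, had -0.13, 0.16, 0.37 and -1.49 on arrays 1, 2, 3 and 5, with array 5 lowest and a mean of -0.27 ± 0.84 (SD, n = 4). Fgf12, an intracellular FGF relative that binds sodium channels, had -0.62, 0.14, -0.51 and 1.45 on arrays 1, 2, 3 and 5. Fgfr1op2 had 0.18, 0.17, -0.89, 0.074 and -0.80 on arrays 1 to 5. The receptor-like gene Fgfrl1, which lacks the kinase domain, was measured on 3 arrays, with 4.66, 4.08 and 0.26 on arrays 1, 3 and 5. It was not tested at 4 arrays. In the fit that admits probes on 3 arrays it had an unadjusted limma p under 0.05, and its adjusted p did not pass.

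In all, 24 member spots were too sparse to test, 16 on 3 arrays, 6 on 2 and 2 on 1. For 10 genes no spot was tested, namely Wnt7b, Fzd2, Jag2, Sufu, Smad3, Fstl3, Fgf1, Fgf3, Fgf22 and Fgfrl1. The remaining untested spots belong to genes that also had a tested spot. Missing ratios were no more frequent among members, with 79.3% to 88.5% of the 87 spots usable per array against 71.8% to 75.9% of all spots. Fzd2 had 2.74, 2.52 and -2.02 on arrays 2, 3 and 4, and Wnt7b had 3.35, -1.53 and -1.23 on arrays 2, 4 and 5. Jag2 had -1.18, -0.76 and 0.94 on arrays 2, 3 and 4. These values show ratios of several log2 units in either direction on single arrays.

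Probes of the same gene disagreed often. For the 10 genes with more than 1 tested probe, 27 probes in all, the means had a single sign in 6 genes and both signs in 4, Ctnnb1, Jag1, Ptch1 and Sfrp2. Over 112 comparisons of 2 probes of a gene on the same array, 68 had the same sign (60.7%). Over 989 genes of the array with 2 to 10 probes the share was 55.9%. Of the 6 probes with an unadjusted p under 0.05, 5 belong to genes with another tested probe. Among those 5 genes, Dll1 and Fzd5 had means of a single sign over all their probes, and Sfrp2, Ptch1 and Jag1 did not. The single sign of Dll1 and Fzd5 leaned on single arrays. Without array 1 the mean of Dll1 probe 2 was -0.0485, and without array 2 that of Fzd5 probe 2 was 0.52. Tgfbr2 had a single tested probe.

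The 6 probes differed in how far they depended on single arrays and on centring. All 6 kept the sign of their mean in every alternative run. The Sfrp2 probe had an unadjusted limma p under 0.05 in 13 of 14 alternatives, Tgfbr2 in 14 of 16, Dll1 in 12 of 15, Ptch1 in 9 of 15, Fzd5 in 7 of 16 and Jag1 in 5 of 16. Runs that lack the probe or average a gene's probes are not counted. Some of the counted runs leave a probe's values as they were, such as leaving out array 5 for Sfrp2 or array 3 for Dll1. With each array centred on probes that had a value on all 5, the 3 positive members stayed under 0.05 and 0 negative ones did, beside 792 positive and 362 negative over all probes. Without any centring 1 positive and 8 negative members were under 0.05, beside 270 and 1837. The split between positive and negative members therefore moved with the centring, as that of all probes did.

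Some members were high on the same arrays. Of 57 member probes with a value on arrays 1 and 3, 7 lay above 1 log2 on both (12.3%), against 7.27% of all probes, and 3 lay below -1 on both (5.26%), against 9.08%. The 7 were Fzd1, Gli3, Hes5, Hes6, Jag1 probe 1 and Sfrp2 probes 1 and 3. The 3 were Dll3, Fzd5 probe 3 and Jag1 probe 3. A higher share above 1 on both was not particular to arrays 1 and 3. It was 8.77% of members against 3.33% of all probes on arrays 1 and 2, and 7.27% against 3.62% on arrays 1 and 4. It was lower than over all probes on arrays 2 and 4, 3 and 4, and 3 and 5, and close to it on the other pairs. On arrays 1 and 3 the rod marker list lay far below all probes. Its 18 probes, for 9 of 12 listed genes, had a median minus that of all probes of -3.55, 0.17, -3.58, -0.40 and -0.021 on arrays 1 to 5. The corresponding values were -1.10, 0.32, -1.34, 0.44 and -0.42 for cones (6 of 7 genes), -0.71, 0.058, -0.70, 0.015 and -0.14 for retinal progenitors (4 of 10 genes) and -0.54, -0.064, -0.50, -0.17 and -0.05 for Muller glia (5 of 8 genes). The progenitor list was tested with 9 probes, for Ccnd1, Lhx2, Nes and Pax6. Of these probes 4 belong to Ccnd1, a cyclin gene that is also in the Wnt list given below. Ganglion cell markers (5 of 9 genes) had -1.08, -0.025, -1.08, -0.47 and 0.086. Their part in the ratios of the members was not tested. A ratio carries no level, so the presence of retina could be checked only by these genes giving usable ratios. All 63 members together had a median minus that of all probes of 0.45, 0.002, 0.31, -0.019 and -0.05, highest on arrays 1 and 3, and the average of these was 0.14 ± 0.23 (SD, n = 5).

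**Figure D3:**
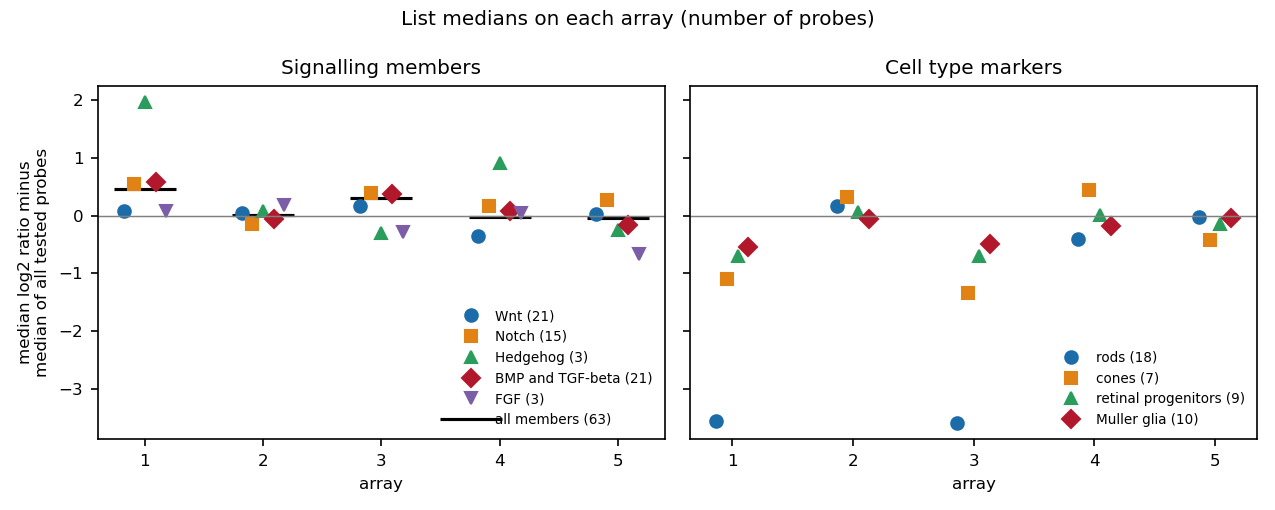
Median log2 ratio of each list minus the median of all tested probes (vertical axis) on arrays 1 to 5 (horizontal axis), for the signalling members by pathway (left) and for cell type markers (right), with the number of probes in brackets. Members stay within 0.7 log2 of 0 except for the 3 Hedgehog probes on arrays 1 and 4, while rod markers lie at -3.55 and -3.58 on arrays 1 and 3.

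Arrays 1 and 3 were less alike over the members than over the array as a whole. Across the 45 member probes measured on all 5 arrays, Pearson's r between these arrays was 0.14 (Spearman 0.22), against 0.41 (Spearman 0.44) across all 6753 such probes. Arrays 2 and 4 had 0.33 over members and 0.34 over all probes. A difference between members and all probes was not particular to arrays 1 and 3, and it went in either direction. Pearson's r was -0.18 over members against 0.095 over all probes for arrays 1 and 4, and 0.22 against -0.061 for arrays 1 and 2. Over the 10 pairs of arrays, r ran from -0.18 to 0.33 with a median of 0.13 for members, and from -0.061 to 0.41 with a median of 0.10 for all probes. These are descriptions across probes, which are not independent replicates, share the hybridisation of each array and include several probes of a gene.

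**Figure D4:**
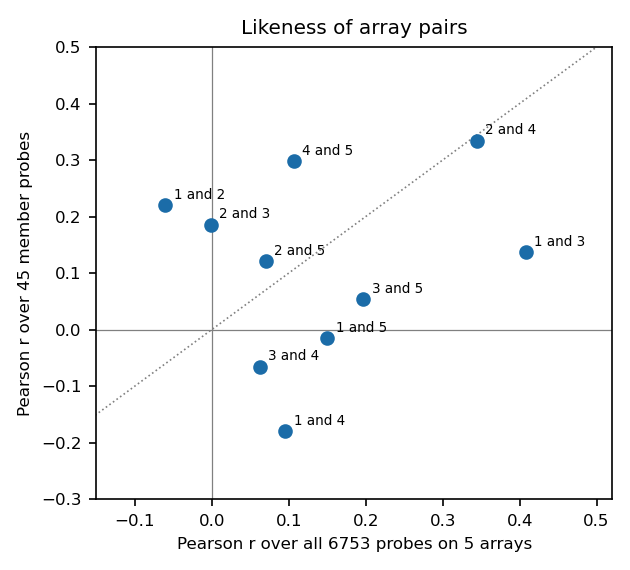
Pearson correlation of log2 ratios between each of the 10 pairs of arrays, over all 6753 probes measured on 5 arrays (horizontal axis) and over the 45 member probes among them (vertical axis); the dotted line marks equal values. The pair of arrays 1 and 3 lies at 0.41 on the horizontal and 0.14 on the vertical axis.

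Other genes of the same pathways, taken from lists written by function, also gave 0 adjusted calls. Of 243 listed entries, 88 were tested with 115 probes, 0 had an adjusted p under 0.05 in limma, and 8 were under 0.05 before adjustment, 2 of them positive and 6 negative. These 8 are 6.96% of the 115 probes, below the 11.4% of all probes at that threshold. The probes given here are those with the smallest p of each list, and 10 of the 14 genes they belong to had another tested probe, with means of both signs in 6 of the 10. Wnt components accounted for 4 of the 8 among 44 probes. The smallest p there belonged to Cxxc5, a Dishevelled-binding inhibitor, with -1.12, -1.56, -1.55 and -1.18 on arrays 2 to 5 and an adjusted p of 0.381. The other Cxxc5 probe had a mean of -0.61 ± 1.24 (SD, n = 4). Bcl9, a co-activator of beta-catenin, had 5.96, 2.96, 1.56 and 0.077 on arrays 1, 2, 3 and 5 on probe 1 and a mean of -0.27 ± 0.22 (SD, n = 5) on probe 2. Ccnd1, the D-type cyclin often named as a Wnt target, had -2.18, -0.31, -1.82, -0.31 and -0.36 on arrays 1 to 5 on probe 4, lowest on arrays 1 and 3, and the other 3 Ccnd1 probes had means of -0.094, -0.34 and -0.52.

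The Notch list had 19 probes with 1 under 0.05, for Maml3, a co-activator of the Notch complex, with -1.89, -2.76, 0.045, -0.61 and -2.35 on arrays 1 to 5. Rbpj, the DNA-binding partner of Notch, had -0.038, 0.91, 0.26, 1.43 and 0.80 on arrays 1 to 5 on probe 1 and a mean of -0.51 ± 1.23 (SD, n = 4) on probe 2. Neurl1a, a ligase acting on Delta, had -0.17, -5.43, -3.83 and 0.21 on arrays 1, 3, 4 and 5 on probe 2 and a mean of 0.61 ± 0.79 (SD, n = 5) on probe 1. In the Hedgehog list of 15 probes the 1 under 0.05 was Kif7, a ciliary kinesin that regulates Gli proteins, with -2.25, -1.59, 0.68, -0.97 and -1.34 on arrays 1 to 5. Cul3, which takes part in Gli turnover, had 3 probes, with means of 1.35, -0.67 and -0.73. The BMP and TGF-beta list of 14 probes had 0 under 0.05. Its smallest p values were for the receptor Neo1, with -0.72, -0.081, -1.21, -0.19 and -0.91 on arrays 1 to 5, for Zfyve9, a Smad anchor, with -0.83, -3.73, 0.075, -0.94 and -0.71 on arrays 1 to 5, and for the ligase Smurf2, with 0.17, -1.02, -1.14, -1.18 and 0.23 on arrays 1 to 5 on probe 2. The other 2 Smurf2 probes had means of -0.0085 and 0.84. All of the Neo1 values were negative. In the FGF list of 23 probes 2 were under 0.05. Ptpn11, the phosphatase SHP2 that carries the FGF signal to Ras, had 2.32, 2.04, 2.43 and 0.93 on arrays 2 to 5 on probe 2, with an adjusted p of 0.324, and a mean of -0.14 ± 0.64 (SD, n = 5) on probe 1. Etv5, a transcription factor induced by FGF, had -0.48, -0.49, -2.35 and -1.66 on arrays 1, 2, 4 and 5, negative on all 4 arrays with a value, and its other probe had a mean of -0.093 ± 0.60 (SD, n = 5). Sulf2, an extracellular sulfatase that trims the heparan sulfate used by FGF receptors, had -0.35, -0.14, -0.72, -0.45 and -0.72 on arrays 1 to 5 on probe 1 and a mean of -0.011 ± 0.99 (SD, n = 5) on probe 2.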

How the data were processed

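Wild-type and Rb-mutant mouse retinal RNA was compared on 5 dual-colour arrays, numbered in order of deposition. Scans (635 and 532 nm) were read in GenePix Pro 4.1.1.29, which took off the local background and was set to normalize nothing, per the labels. The authors deposited log2 ratios, a scale read from the values. For their direction and for the filter behind empty cells the labels give nothing. Cells at 16.61 were taken as a filler and set to missing. Each array was centred on its median (-0.755, -0.025, -0.715, -0.0575 and -0.742 as deposited), leaving out 192 ACTB spots from tests. Usable spots numbered 12444 to 13145 per array. The number of arrays limits the precision.

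Symbols came from the platform annotation, 7722 spots with 1 symbol, 353 with several and 9061 with none besides ACTB, and all 56 member symbols matched RefSeq (GRCm38.p6) by gene identifier. Probes on at least 4 arrays were fitted as a mean against 0 by limma 3.58.1 under R 4.3.3, with eBayes. The fit was tried on simulated data, where recovery of changed probes was required only at a spread far below the real one. Recovery at the real spread is not given here. Probes of 1 gene were kept apart. Values on every array are given for the up to 5 smallest p per pathway, for genes with several probes and for a list of well-known members, and for up to 3 other genes per pathway. Fzd8, Hes6, Hey1, Wnt11, Tgfbr1, Bmp6 and the untested spots given fall outside this, chosen once their values were known. The members and lists were chosen with earlier results of these data known. The marker lists of astrocytes, microglia and macrophages, fibroblasts and blood had 0 tested genes. The others not given in the report were bipolar cells (2 genes), pigment epithelium (1) and lens (1). Amacrine and horizontal cells (5) and vessels (3) are given only among the closing observations. Alternatives covered centring, scaling, the filler, the filter, moderation, single arrays, the scan's focus position and means per gene.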

Additional observations from a re-analysis of the deposited data

Results flagged for a closer look

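In 3 of 48 sets of values an array lay far from the rest, where chance would give about 2.4 such sets. For Fzd5 probe 3 it was array 5, at a log2 ratio of 1.08, while the other 3 arrays with a value lay from -2.36 to -1.83. For Acvr1b it was array 4, at -2.75, while the rest lay from -0.67 to 0.018. The median of the Wnt members minus that of all probes was lowest on array 4, at -0.35, and lay from 0.02 to 0.16 elsewhere.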

How the results depend on the processing

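In all 17 alternatives 0 probes and 0 members had an adjusted p under 0.05. At an unadjusted limma p under 0.05 the 6 members became 3 with each array centred on probes that had a value on all 5 and 2 when a gene's probes were averaged (Tgfbr2 and Fzd9, of 46 genes), and ran from 4 to 8 with single arrays left out. Over all features the counts were 1146 of 10036 probes (11.4%), 1154 with that centring, and 544 of 4625 gene means (11.8%), and the share over all probes ran from 8.23% to 11.7% with single arrays left out. The median of member means, -0.15, moved to 0.043 with that centring and to -0.609 with none, as the median over all probes moved from -0.16 to 0.007 and -0.617, and ran from -0.15 to 0.047 with single arrays left out, highest without array 5. Of the 43 named members 23 kept the sign of their mean in every setting run. Up to 9 changed it in any single alternative, with arrays 1 and 3 both left out. Arrays 1 to 3 (focus position 10) alone gave 8 of 63 members under 0.05, beside 7.19% of all probes, and arrays 4 and 5 (focus position 0) 5 of 54, beside 6.98%, with 0 adjusted calls in each. No paired analysis was possible because all arrays form 1 group. The files used hold ratios without intensities, so the signal behind a ratio is unknown.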

Other observations

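Vessel markers, 3 of 5 listed genes (Cdh5, Cldn5 and Kdr), had a median minus that of all probes of 0.50, -1.90, 0.53, -1.02 and 0.36 log2 on arrays 1 to 5, low on arrays 2 and 4. Fzd4, the Norrin receptor, was below 0 on these arrays on both probes. It was also below 0 on array 3, and on array 5 for the probe with a value there, and on arrays 3 and 5 the vessel median was above 0. A relation between Fzd4 and the vessel markers was not tested. Amacrine and horizontal cell markers, 5 of 9 genes, stayed between -0.08 and 0.46.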
